A study of Homo sapiens with 12 samples.

Results

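The genes described are 10 markers of epithelial and mesenchymal cell state: CDH1, EPCAM, CLDN1, OCLN, CDH2, VIM, FN1, ZEB1, SNAI1 and SNAI2. They were chosen by name from the 58676 genes of the deposited table, and all 10 had a mean of at least 1 FPKM (read fragments scaled to gene length and to the reads assigned in the library), as did 12194 genes in all. The cells were A549, an established human lung carcinoma line. They were a control line labelled Control1 and lines with a knockout of NFE2L1, KO1 and KO2. NFE2L1 encodes a transcription factor that raises proteasome gene expression when the proteasome is inhibited. For 4 h each line received DMSO vehicle or 200 nM bortezomib, an inhibitor of the proteasome, and each of the 6 groups has 2 libraries. The labels do not say how the knockouts were made or whether each line is a single clone, and KO1 and KO2 are 1 line each.

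Epithelial cells are held together by adherens and tight junctions, in which E-cadherin (CDH1), claudins and occludin span the membranes of neighbouring cells. In epithelial-mesenchymal transition these junction genes are repressed by transcription factors of the SNAI and ZEB families, which bind E-box sequences, while N-cadherin, vimentin and fibronectin increase. SNAI1 protein is short-lived and is degraded by the proteasome, so transcript levels need not follow protein levels. A549 cells carry markers of both states.

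The libraries held 13211608 to 23819258 assigned reads. NFE2L1 transcript in KO1 was 9.82 to 11.6% of the control line's in vehicle and 18.9 to 24.8% in bortezomib. In KO2 it was 22.3 to 25.6% and 26.8 to 33.7%. All 10 genes of a list of A549 markers were present, with summed levels of 2020 to 6850 FPKM. Of the fibroblast list, 1 of 6 genes, COL1A1, had a mean of at least 1 FPKM, and the other 5 were below that. The endothelial list had 0 of 4 such genes and the leukocyte list 1 of 6. The alveolar type 2 list also had 1 of 6, with SFTPA1 at 0 in every library. The part that contaminating cells could have in the results was not tested. In bulk RNA, fewer cells expressing a gene and less RNA per cell cannot be told apart.

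Libraries of 1 group differed widely according to the replicate suffix in their titles. In each group 1 library is labelled R2. Its partner is labelled R1 in KO1 and KO2 and has no suffix in the control line. Mitochondrially encoded genes took 12.31 to 19.29% of reads in the R2 libraries and 5.44 to 6.8% in their partners. CDH1, EPCAM, CLDN1, OCLN and FN1 were higher in the R2 library in 6 of 6 groups, by a median of 2.37, 1.74, 1.8, 2.02 and 2.3 times. VIM, ZEB1, SNAI1 and SNAI2 were lower in the R2 library in 6 of 6 groups, at a median of 0.383, 0.485, 0.576 and 0.244 of the partner's level. CDH2 was the exception, with the R2 library higher in 3 of 6 groups and ratios of 0.836 to 1.44. In 9 of the 10 genes the direction was thus the same in all 6 groups, with FN1 on the side of the epithelial genes. Over the 12194 genes the difference between R2 and its partner also correlated between groups (Pearson's r of 0.7 to 0.89). A shared direction is therefore not particular to these markers, and the share of all genes with it was not counted. What the suffix marks is not stated, and its part in these values was not tested.

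**Figure D1:**
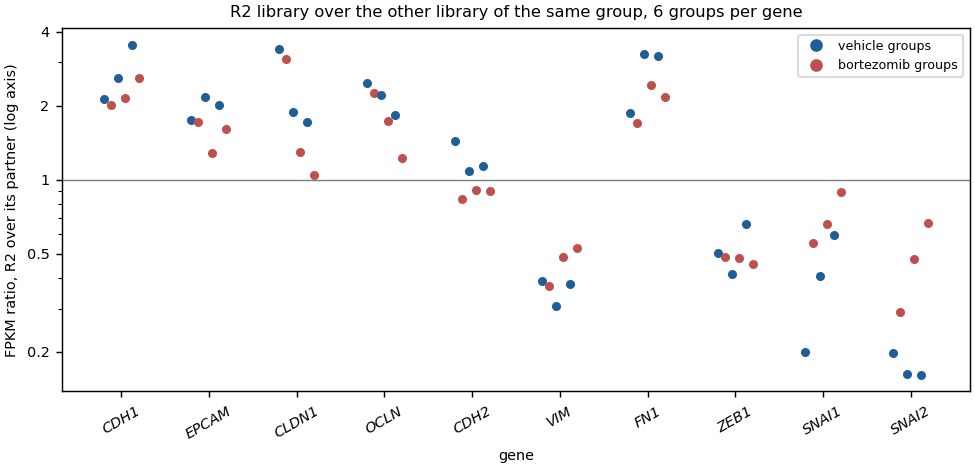
FPKM of the R2 library divided by that of the other library of the same group, on a log axis, with 1 point for each of the 6 groups and the line at 1. The 5 genes CDH1, EPCAM, CLDN1, OCLN and FN1 lie above the line in every group, VIM, ZEB1, SNAI1 and SNAI2 lie below it, and CDH2 lies on both sides.

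Because of this difference each comparison is given from a pair of limma fits to log2(FPKM + 1) over all 12 libraries. The unblocked fit has a mean for each group. The blocked fit adds a term for the title suffix, which compares libraries within a suffix. Losses of a blocked call on leaving out a library refer to this blocked fit, rerun without that library. Genes with an adjusted p under 0.05 (Benjamini-Hochberg, over the 12194 genes) are described as called. Nothing in the labels says that the libraries of a group came from separate cultures, so the p-values may measure technical spread. Directions within suffix and the overlap of groups describe single genes. The shares of all genes with the same direction, or with groups as separate, were not counted. Shares of all genes at an unadjusted p under 0.05 are not given here, so counts at that threshold are no results about the markers or lists. The same holds for counts by voom on the recovered reads, outside the interaction.

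Averaged over the 12 libraries, VIM was at 65.5 FPKM, CLDN1 at 62.9, FN1 at 32.4 and CDH2 at 21.1. OCLN (6.76), EPCAM (4.79), ZEB1 (4.08), CDH1 (3.65), SNAI1 (3.31) and SNAI2 (1.71) were lower. The ranges over libraries overlapped for every pair of neighbours in this order. N-cadherin was above E-cadherin in each library, with a CDH2 to CDH1 ratio of FPKM from 2.22 to 12.6. Of the 3 transcription factors, SNAI2 rested on the fewest reads, 11 to 132 per library.

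**Figure D2:**
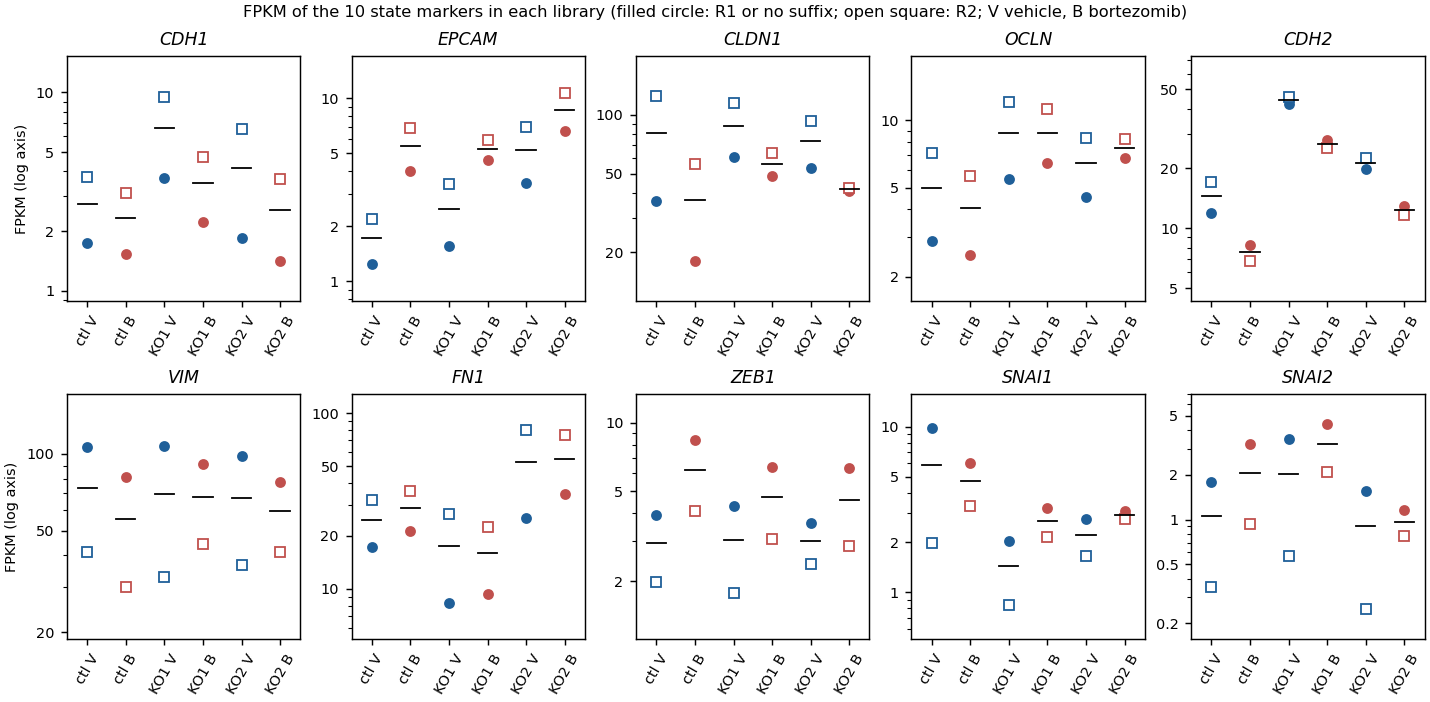
FPKM of each gene in the 12 libraries (log axes that differ between panels), by line (ctl, KO1, KO2) and by vehicle (V, blue) or bortezomib (B, red). Filled circles are the R1 or unnumbered libraries, open squares are R2, and bars are means of 2. CDH2 and EPCAM separate vehicle from bortezomib in the control line and KO1, while VIM and SNAI2 are spread mainly by suffix.

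Bortezomib was followed within 4 h by lower CDH2, CLDN1 and CDH1 and by higher EPCAM and ZEB1, in all 6 comparisons of libraries with the same line and suffix. The genes that were lower thus included the epithelial and the mesenchymal cadherin, and those that were higher included an epithelial surface protein and a repressor of epithelial genes. For the mean of the 3 lines, the unblocked fit called CDH2 and EPCAM, 2 of 10 genes, where it called 11.6% of all genes. The blocked fit called 6 of 10, CDH1, CDH2 and CLDN1 lower and EPCAM, ZEB1 and SNAI2 higher, where it called 54.9% of all genes. Read against these shares, the counts are no result about the markers as a set. The agreement of all 6 comparisons has no such share beside it and is no result about the set either. The median change of the 10 genes was 0.07 on the log2 scale, beside -0.01 for all genes.

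CDH1 (ENSG00000039068, chromosome 16, 68737225 to 68835548) encodes E-cadherin, the main adhesion protein of epithelial adherens junctions. Here and below, the first value of each pair is the R1 or unnumbered library and the second is R2. Its FPKM was 1.75 and 3.74 in control vehicle, 1.54 and 3.1 in control bortezomib, 3.69 and 9.53 in KO1 vehicle, 2.21 and 4.74 in KO1 bortezomib, 1.84 and 6.51 in KO2 vehicle, and 1.42 and 3.68 in KO2 bortezomib. Vehicle and bortezomib overlapped in each line, but the bortezomib library was lower in 6 of 6 comparisons within line and suffix, at 0.498 to 0.879 of vehicle. The fall over the 3 lines was 0.44 on the log2 scale in the blocked fit (log2 change -0.44 ± 0.09 SE, limma adjusted p = 0.00319) and was not called in the unblocked fit (adjusted p = 0.467). In KO1 the blocked change was -0.71 ± 0.16 (adjusted p = 0.0118, unblocked 0.837), and this call was lost on leaving out either KO1 R2 library (adjusted p up to 0.127). A processed ferritin pseudogene, FTLP14, lies within CDH1 on the same strand at a mean of 0.388 FPKM.

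EPCAM (ENSG00000119888, chromosome 2, 47345158 to 47387601) encodes an epithelial cell adhesion molecule of the cell surface. Its FPKM was 1.25 and 2.19 in control vehicle, 4.01 and 6.91 in control bortezomib, 1.57 and 3.4 in KO1 vehicle, 4.6 and 5.93 in KO1 bortezomib, 3.45 and 6.93 in KO2 vehicle, and 6.61 and 10.6 in KO2 bortezomib. The bortezomib libraries lay above both vehicle libraries in the control line and KO1, and the ranges overlapped in KO2. EPCAM rose by 0.93 ± 0.24 SE on the log2 scale in the unblocked fit over the 3 lines (limma adjusted p = 0.0353) and by 0.93 ± 0.09 in the blocked fit (adjusted p = 4.39e-05). The unblocked call held on leaving out control bortezomib without suffix, KO1 vehicle R2 or KO2 vehicle R2, and was lost on leaving out any of the other 9 libraries (adjusted p up to 0.0937). It was also lost with a filter at a mean of 0.1 FPKM (0.051), with no filter (0.0828), after quantile normalization (0.0533) and without mitochondrially encoded genes (0.0543). With the block, EPCAM rose in each line: by 1.23 ± 0.16 in control cells, 0.89 ± 0.16 in KO1 and 0.66 ± 0.16 in KO2. Their adjusted p-values were 0.000693, 0.00391 and 0.0146, beside 0.251, 0.554 and 0.734 without the block. The KO1 call was lost on leaving out KO1 bortezomib R1 (adjusted p = 0.0553), and the KO2 call on leaving out KO2 vehicle R1 or either KO2 bortezomib library (adjusted p up to 0.145).

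CLDN1 (ENSG00000163347, chromosome 3, 190305701 to 190322475, minus strand) encodes claudin-1, a sealing protein of tight junctions. Its FPKM was 36.6 and 124 in control vehicle, 18.1 and 56 in control bortezomib, 61.1 and 115 in KO1 vehicle, 49 and 63.8 in KO1 bortezomib, 53.9 and 92.6 in KO2 vehicle, and 40.8 and 42.6 in KO2 bortezomib. Bortezomib libraries were lower in 6 of 6 comparisons, at 0.45 to 0.802 of vehicle, and the ranges were separate in KO2 alone. CLDN1 fell over the 3 lines in the blocked fit (log2 change -0.79 ± 0.12 SE, limma adjusted p = 0.000487) and was not called without the block (adjusted p = 0.238). By line, the blocked changes were -1.06 ± 0.20 in the control line (adjusted p = 0.00504, unblocked 0.634) and -0.75 ± 0.20 in KO2 (adjusted p = 0.0271, unblocked 0.891). The control line's call was lost on leaving out either control R2 library (adjusted p up to 0.0686), and the KO2 call on leaving out any KO2 library but bortezomib R1 (up to 0.232). The KO2 call was also lost when the block counted the unnumbered control libraries as R1 (adjusted p = 0.143).

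OCLN (ENSG00000197822, chromosome 5, 69492292 to 69558104) encodes occludin, another membrane protein of tight junctions. It had FPKM of 2.89 and 7.12 in control vehicle, 2.49 and 5.62 in control bortezomib, 5.48 and 12.1 in KO1 vehicle, 6.43 and 11.2 in KO1 bortezomib, 4.53 and 8.32 in KO2 vehicle, and 6.75 and 8.25 in KO2 bortezomib. Vehicle and bortezomib overlapped in every line, and bortezomib was lower in 4 of 6 comparisons within line and suffix, at 0.789 to 1.49 of vehicle.

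CDH2 (ENSG00000170558, chromosome 18, 27950966 to 28177446, minus strand) encodes N-cadherin, the cadherin that mesenchymal and neural cells use. Its FPKM was 11.9 and 17.1 in control vehicle, 8.23 and 6.88 in control bortezomib, 42.3 and 46 in KO1 vehicle, 27.9 and 25.4 in KO1 bortezomib, 19.9 and 22.6 in KO2 vehicle, and 13 and 11.7 in KO2 bortezomib. Both bortezomib libraries lay below both vehicle libraries in all 3 lines. CDH2 fell over the 3 lines by a log2 change of -0.76 ± 0.18 SE without the block (limma adjusted p = 0.0273) and -0.76 ± 0.11 with it (adjusted p = 0.00035). The unblocked call held on leaving out control vehicle without suffix or KO1 vehicle R1 and was lost for each of the other 10 libraries (adjusted p up to 0.0822), as it was after rescaling the FPKM of each library to a common sum (0.0579). In the blocked fit the change was similar by line, -0.84 ± 0.18 in control cells, -0.71 ± 0.18 in KO1 and -0.73 ± 0.18 in KO2. The adjusted p-values were 0.00904, 0.0215 and 0.0196, beside 0.314, 0.525 and 0.486 without the block. These calls by line were lost on leaving out either R2 library in the control line (adjusted p up to 0.157), any of the 4 libraries in KO1 (up to 0.155) and any of the 4 in KO2 (up to 0.156).

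VIM (ENSG00000026025, chromosome 10, 17228259 to 17237593) encodes vimentin, the intermediate filament of mesenchymal cells. It had FPKM of 106 and 41.1 in control vehicle, 81.2 and 30.1 in control bortezomib, 107 and 32.8 in KO1 vehicle, 90.9 and 44.2 in KO1 bortezomib, 97.7 and 36.8 in KO2 vehicle, and 77.9 and 41.2 in KO2 bortezomib. Every pair of groups overlapped, and VIM was called in none of the 10 comparisons by either fit. FN1 (ENSG00000115414, chromosome 2, 215360440 to 215436172, minus strand) encodes fibronectin, a protein of the extracellular matrix. Its FPKM was 17.2 and 32.2 in control vehicle, 21.2 and 36.1 in control bortezomib, 8.25 and 26.8 in KO1 vehicle, 9.27 and 22.5 in KO1 bortezomib, 25.2 and 80.2 in KO2 vehicle, and 34.7 and 75.4 in KO2 bortezomib. With bortezomib FN1 was at 0.838 to 1.38 of vehicle, higher in 4 of 6 comparisons, and was called in no line.

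ZEB1 (ENSG00000148516, chromosome 10, 31318495 to 31529814) encodes a zinc finger repressor of CDH1 and of other epithelial genes. The promoter windows of ZEB1 and CLDN1, which moved in opposite directions with bortezomib, are shown as the 250 bases before the RefSeq start site nearest to the deposited gene end (GRCh38.p14, written 5′ to 3′ on the gene's strand). Capitals mark CAGGTG or CACCTG, the E-box that SNAI and ZEB factors bind. The windows are chr10:31318167-31318416 on the plus strand and chr3:190322447-190322696 on the minus strand.
ZEB1: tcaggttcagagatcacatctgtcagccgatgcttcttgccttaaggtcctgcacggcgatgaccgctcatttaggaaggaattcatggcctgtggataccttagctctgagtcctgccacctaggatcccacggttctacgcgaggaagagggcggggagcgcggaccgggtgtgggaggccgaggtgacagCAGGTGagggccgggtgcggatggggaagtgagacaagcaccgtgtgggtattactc
CLDN1: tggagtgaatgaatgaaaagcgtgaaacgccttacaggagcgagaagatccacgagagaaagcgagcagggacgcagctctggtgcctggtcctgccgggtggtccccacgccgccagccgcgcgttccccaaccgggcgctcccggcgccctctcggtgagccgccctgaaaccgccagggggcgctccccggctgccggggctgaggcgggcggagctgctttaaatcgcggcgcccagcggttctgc
The ZEB1 window holds 1 such E-box, which starts 57 bases before the start site, and the CLDN1 window holds none. Promoter windows were searched for 6 of the genes (CDH2, VIM, FN1, ZEB1, CLDN1 and OCLN). The promoter set used had no window for CDH1, EPCAM or SNAI1. ZEB1 and OCLN had an E-box in the nearest window, and in OCLN it starts 33 bases before the site. Counting windows at other start sites of the 6 genes, 4 of 14 held the E-box, including a further ZEB1 window with 2 matches. Among 35116 RefSeq windows of this length, 17.5% held the E-box. The sequence TGACNNNGC, the core of antioxidant response elements, was searched on both strands, was in 0 of the 6 nearest windows and was in 10.9% of all windows.

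The FPKM of ZEB1 was 3.91 and 1.98 in control vehicle, 8.36 and 4.07 in control bortezomib, 4.28 and 1.78 in KO1 vehicle, 6.37 and 3.07 in KO1 bortezomib, 3.62 and 2.39 in KO2 vehicle, and 6.29 and 2.86 in KO2 bortezomib. Bortezomib libraries were higher in 6 of 6 comparisons within line and suffix, at 1.19 to 2.14 times vehicle, and the groups were separate in the control line alone. ZEB1 rose over the 3 lines by 0.6 ± 0.09 SE on the log2 scale in the blocked fit (limma adjusted p = 0.000517, unblocked 0.219). By line the rise was 0.85 ± 0.16 in the control line (adjusted p = 0.00395, unblocked 0.568) and 0.52 ± 0.16 in KO1 (adjusted p = 0.0363, unblocked 0.879). The control line's call was lost on leaving out control bortezomib without suffix (adjusted p = 0.0508), and the KO1 call on leaving out any of the 4 KO1 libraries (up to 0.196). The antisense gene ZEB1-AS1 overlaps ZEB1 by 1953 bases at a mean of 0.567 FPKM, and since the strand setting is not stated the reads in the overlap cannot be assigned.

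SNAI1 (ENSG00000124216, chromosome 20, 49982999 to 49988886) encodes the repressor Snail. Its FPKM was 9.84 and 1.97 in control vehicle, 6.03 and 3.34 in control bortezomib, 2.05 and 0.831 in KO1 vehicle, 3.23 and 2.14 in KO1 bortezomib, 2.78 and 1.66 in KO2 vehicle, and 3.09 and 2.77 in KO2 bortezomib. Bortezomib was higher in 5 of 6 comparisons, at 0.613 to 2.57 times vehicle, with the unnumbered control pair the exception, and SNAI1 was called in no bortezomib comparison by either fit. SNAI2 (ENSG00000019549, chromosome 8, 48917690 to 48921740, minus strand) encodes the related repressor Slug. Its FPKM was 1.78 and 0.351 in control vehicle, 3.21 and 0.931 in control bortezomib, 3.47 and 0.567 in KO1 vehicle, 4.38 and 2.09 in KO1 bortezomib, 1.55 and 0.25 in KO2 vehicle, and 1.16 and 0.774 in KO2 bortezomib. Vehicle and bortezomib overlapped in each line. Bortezomib was higher in 5 of 6 comparisons, and over the 3 lines SNAI2 rose by 0.44 ± 0.15 SE in the blocked fit (limma adjusted p = 0.0309, unblocked 0.484). This call held on leaving out KO1 vehicle R1 or KO2 bortezomib R1 and was lost for each of the other 10 libraries (adjusted p up to 0.088).

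Taken by line, the unblocked fit called 0 of the 10 genes in each (control, KO1, KO2), where it called 0.467%, 0.238% and 0.32% of all genes. At an unadjusted p under 0.05 it had 2, 1 and 1 of the 10, and voom on the recovered reads called 0 in each. These counts have no share of all genes beside them, so they are no result about the markers. With the block 4 of 10 were called in control cells, 4 in KO1 and 3 in KO2, beside 32.4%, 27.7% and 27% of all genes. CDH2 and EPCAM were called with the block in all 3 lines. The interaction, which asks whether the bortezomib change in the mean of the KO lines differed from that in the control line, called 0 of 10 genes and 0% of all genes in either limma fit. At an unadjusted p under 0.05 it had 0 of 10 without the block and 1 of 10 with it, and voom with the block called 123 genes, of which 0 were among the 10.

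**Figure D3:**
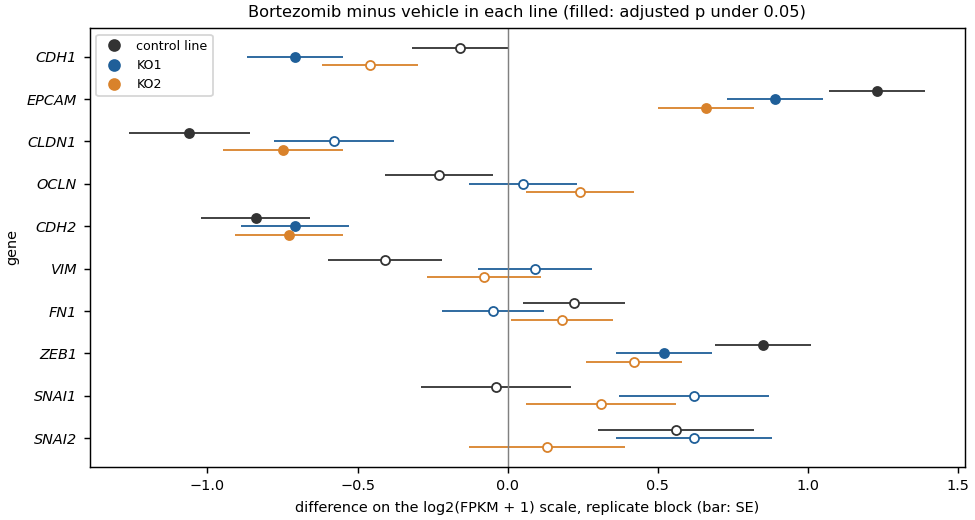
Difference between bortezomib and vehicle on the log2(FPKM + 1) scale in each line, from the blocked fit, with bars of 1 SE. Filled points have an adjusted p under 0.05. CDH2 lies at -0.84, -0.71 and -0.73 and EPCAM at 1.23, 0.89 and 0.66 (control, KO1, KO2).

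In vehicle, the genes called with the block by suffix were the cadherins CDH1 and CDH2 in KO1, and EPCAM and FN1 in KO2. SNAI1 was at 0.209 and 0.422 of the control line in KO1 without a call in that fit. The comparisons of KO1 and of KO2 with the control line share the control libraries. All ratios of a KO line to the control line, also those of NFE2L1, set R2 against R2 and R1 against the unnumbered library. The labels do not say that R1 and unnumbered libraries belong together. For KO1 the unblocked fit called 0 of 10 genes and 0.213% of all genes, with 2 of 10 (CDH2 and SNAI1) at an unadjusted p under 0.05. The blocked fit called 2 of 10, CDH1 and CDH2, where it called 5.95% of all genes. For KO2 the unblocked fit called 0 of 10 genes and 0.23% of all genes, with 1 of 10 (EPCAM) at an unadjusted p under 0.05. With the block 2 of 10 were called, EPCAM and FN1, beside 4.91% of all genes. Voom on the recovered reads called 0 of 10 in both comparisons without the block and made these 4 calls with it. It used the same libraries and block, and its share of all genes is not given, so it adds no separate support. Since the block gives the unnumbered libraries their own level, the link between KO and control libraries rests mainly on R2.

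CDH2 was above the control line in 4 of 4 comparisons in KO1, at 2.68 to 3.7 times. In KO2 it was above in 4 of 4, at 1.32 to 1.7 times. In neither treatment did the KO libraries overlap the control libraries, and the share of all genes so separated was not counted. In KO1 in vehicle CDH2 was higher by 1.5 ± 0.22 SE on the log2 scale with the block (limma adjusted p = 0.00587, unblocked 0.131). CDH1 was higher in KO1 in 4 of 4 comparisons, at 1.43 to 2.55 times, although KO1 vehicle R1 (3.69) lay below control vehicle R2 (3.74). Its blocked difference in vehicle was 1.14 ± 0.19 (adjusted p = 0.0102, unblocked 1), and the call was lost on leaving out either vehicle R2 library, of the control line or of KO1 (adjusted p up to 0.183). E-cadherin and N-cadherin transcripts were thus both higher in KO1.

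EPCAM in vehicle was 2.76 to 3.17 times the control line in KO2, with no overlap, and 1.26 to 1.56 times in KO1, with overlap. The blocked difference in KO2 was 1.17 ± 0.18 SE (limma adjusted p = 0.00751, unblocked 0.892), and the call was lost without control vehicle R2 or KO2 vehicle R2 (up to 0.284). FN1 was lower than the control line in 4 of 4 comparisons in KO1, at 0.437 to 0.833, and higher in 4 of 4 in KO2, at 1.47 to 2.49 times, although the groups overlapped in both treatments. Its blocked difference in KO2 in vehicle was 1.2 ± 0.20 (adjusted p = 0.00997, unblocked 1). The FN1 call was lost without either of the same 2 libraries (up to 0.221). With the unnumbered libraries counted as R1 the difference was 0.91 (adjusted p = 0.0424).

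The remaining genes are given as ratios to the control line. SNAI1 was below it in 4 of 4 comparisons in either KO line, at 0.209 to 0.64 in KO1 and 0.283 to 0.846 in KO2. Its vehicle groups overlapped, the bortezomib groups did not, and it was not called by the unblocked fit or by the block by suffix. With the unnumbered libraries counted as R1, SNAI1 was called in KO1 in vehicle (log2 difference -1.26, limma adjusted p = 0.0419). SNAI2 was above the control line in 4 of 4 comparisons in KO1, at 1.36 to 2.24 times, and below it in 4 of 4 in KO2, at 0.363 to 0.866, with no call. OCLN was higher in 4 of 4 in both lines, at 1.7 to 2.58 times in KO1 and 1.17 to 2.71 times in KO2. In KO1 in vehicle OCLN was called only when unnumbered libraries counted as R1 (0.71, adjusted p = 0.0443). VIM, ZEB1 and CLDN1 had ratios on both sides of 1 in either KO line.

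**Figure D4:**
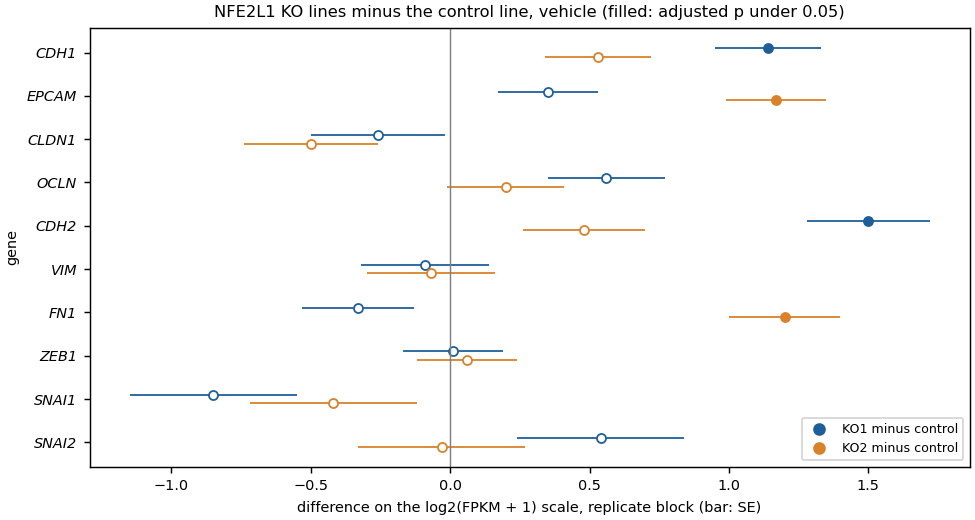
Difference between each NFE2L1 KO line and the control line in vehicle on the log2(FPKM + 1) scale, from the blocked fit, with bars of 1 SE. Filled points have an adjusted p under 0.05. CDH1 (1.14) and CDH2 (1.5) are called in KO1, and EPCAM (1.17) and FN1 (1.2) in KO2.

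For the mean of KO1 and KO2 against the control line in vehicle, the unblocked fit called 0 of 10 genes and 0.344% of all genes, with CDH2 alone at an unadjusted p under 0.05, and voom without the block called 0 of 10. The blocked fit called 3 of 10 higher, CDH1 (0.83 ± 0.17 SE, limma adjusted p = 0.0235), CDH2 (0.99 ± 0.20, 0.0208) and EPCAM (0.76 ± 0.16, 0.0285), beside 6.18% of all genes. Their unblocked adjusted p-values were 1, 0.311 and 1. All 3 calls were lost on leaving out the R2 vehicle library of the control line, of KO1 or of KO2, and the CDH1 call also on leaving out control bortezomib without suffix (adjusted p up to 0.338, 0.125 and 0.505 for CDH1, CDH2 and EPCAM). SNAI1 was called for this mean only when unnumbered libraries counted as R1 (-1.05, adjusted p = 0.048).

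With bortezomib, the unblocked fit called 0 of 10 genes and 0.164% of all genes for the same mean, with CDH2 alone at an unadjusted p under 0.05, and voom without the block called 0 of 10. The blocked fit called CDH2 (1.11 ± 0.20 SE, limma adjusted p = 0.0124, unblocked 0.206) and OCLN (0.75 ± 0.19, adjusted p = 0.0437, unblocked 1), 2 of 10, beside 7.66% of all genes. The libraries of both KO lines lay above both control libraries for these 2 genes, and the share of all genes so separated was not counted. The CDH2 call was lost on leaving out control bortezomib R2 (adjusted p = 0.317). The OCLN call was lost on leaving out any control library, either KO1 bortezomib library or either KO2 vehicle library (adjusted p up to 0.353).

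Between KO1 and KO2 in vehicle, the unblocked fit called 0 of 10 genes and 0.0656% of all genes, with CDH2 alone at an unadjusted p under 0.05, and voom without the block called 0 of 10. With the block 3 of 10 were called, beside 3% of all genes. CDH2 was higher in KO1 (1.02 ± 0.18 SE, limma adjusted p = 0.0226), and EPCAM (-0.82 ± 0.16, 0.0277) and FN1 (-1.52 ± 0.17, 0.00224) were higher in KO2. In the unblocked fit the adjusted p was 1 for each. The CDH2 and EPCAM calls were lost on leaving out any of the 4 vehicle libraries of the KO lines (adjusted p up to 0.249 and 0.295), and the FN1 call on leaving out KO2 vehicle R2 (0.0544).

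Likeness between genes was measured as Pearson's r of log2(FPKM + 1) over the 12 libraries after the mean of the R2 or of the other libraries was subtracted. The libraries share lines and treatments, so these values are descriptions. Among the 10 genes, CDH1 and CDH2 were the pair with the highest r, 0.89. Without that subtraction their r was 0.59, and CDH1 with OCLN had the highest, 0.78. CDH2 had r of 0.75 with OCLN, 0.74 with CLDN1 and -0.79 with SNAI1. ZEB1 had r of -0.74 with CLDN1 and 0.65 with EPCAM (0.03 with EPCAM without the subtraction), and FN1 had r of -0.7 with SNAI2. The genes most like each marker among all genes tested included SCNN1A, a subunit of the epithelial sodium channel, for CDH1 (r = 0.983), CD99, a surface glycoprotein, for CDH2 (0.98), TNKS, a poly-ADP-ribosyltransferase, for ZEB1 (0.982) and UBAC2 for CLDN1 (0.981). For OCLN it was TCTN1 (0.957), for FN1 ZNF585B (0.953), for SNAI1 CEP68 (0.946), for VIM IMPDH2 (0.933) and for SNAI2 SOD2 (0.915).

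Further genes of the same programmes were counted from lists chosen by known function, but with earlier results of these data known. Their counts and shares are therefore descriptions, with no test of the lists as sets. Of 45 other epithelial junction and state genes, 28 were tested. Over the 3 lines with bortezomib, 3 rose and 12 fell in the blocked fit (0 and 3 unblocked), and their median log2 change was -0.14. ELF3, an epithelial transcription factor, fell by a log2 change of -0.98 ± 0.12 SE (limma adjusted p = 0.000162, unblocked 0.0238). The adhesion protein NECTIN1 (-0.88 ± 0.11, blocked adjusted p = 0.000192, unblocked 0.0738) and junction plakoglobin JUP (-0.84 ± 0.12, 0.000347, unblocked 0.129) fell in the blocked fit. In vehicle-treated KO lines, taken as a mean, 6 of 28 were higher and 0 lower with the block, with a median of 0.49 beside 0.06 for all genes. That is 21.4% of the list, beside 6.18% of all genes. On leaving out 1 library 0 to 5 were called, with 0 without control vehicle R2 or KO2 vehicle R2, where 40 and 242 of all genes were called. Without the block limma called 0, with 4 at an unadjusted p under 0.05, and voom called 0 without the block and 12 with it. The share of all genes that voom called is not given here, so its count is no result about the list. The 6 genes called by limma with the block included LSR of tricellular junctions (1.45 ± 0.28, blocked adjusted p = 0.0182, unblocked 1), the desmosomal plakophilin PKP2 (1.11 ± 0.20, 0.0151, unblocked 0.16) and the epithelial factor EHF (0.98 ± 0.21, 0.0287, unblocked 0.179).

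Of 35 further mesenchymal genes, 25 were tested, and with bortezomib 2 rose and 13 fell in the blocked fit (1 and 5 unblocked), with a median of -0.34. The surface enzyme NT5E was at 25.8 and 70.9 FPKM in control vehicle and 4.83 and 7.56 in control bortezomib, and fell over the 3 lines by a log2 change of -2.09 ± 0.14 SE (blocked limma adjusted p = 6.72e-06, unblocked 0.00214). The receptor tyrosine kinase AXL was at 102 and 212 FPKM in control vehicle and 23.9 and 30.8 in control bortezomib (-1.79 ± 0.10, 3.29e-06, unblocked 0.00347). Both were lower in each bortezomib library than in any vehicle library of the same line. COL1A1, a collagen chain, is also the 1 gene of the fibroblast list with a mean of at least 1 FPKM. It rose by 1.77 ± 0.25 (blocked limma adjusted p = 0.000358, unblocked 0.00623). Its FPKM was 5.18 and 1.85 in control vehicle and 6.1 and 10.7 in control bortezomib. THY1 and LUM of the same list reached 2.51 and 1.4 FPKM at most. The summed fibroblast list, which includes COL1A1 itself, was at 2.24 to 5.73 FPKM in the vehicle libraries and 6.46 to 24.3 in the bortezomib libraries. The summed leukocyte list was at 0.783 to 3.69 FPKM in vehicle and 0 to 0.815 in bortezomib, and the alveolar type 2 list at 10 to 28.6 and 4.02 to 11.1. In each of the latter lists 1 gene, CD14 and ABCA3 respectively, had a mean of at least 1 FPKM. The part of these lists in the bortezomib results was not tested.

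In the same mean of the vehicle-treated KO lines, 1 mesenchymal gene was higher and 6 lower with the block (1 and 1 unblocked). These are 28% of the 25 genes with the block and 8% without it, beside 6.18 and 0.344% of all genes. At an unadjusted p under 0.05 there were 7 without the block and 12 with it, and voom called 1 and 10. The latter counts have no share of all genes beside them, so they are no result about the list. The number called with the block fell on leaving out control vehicle R2 or KO2 vehicle R2, as did the number of all genes called. The cadherin gene CDH4 was at 13.8 and 25.9 FPKM in control vehicle, 1.43 and 0.828 in KO1 and 4.11 and 2.26 in KO2 (-3.19 ± 0.22 SE, blocked limma adjusted p = 0.000131, unblocked 0.00921). FSTL1, a secreted glycoprotein, was lower by a log2 difference of -1.66 ± 0.17 (0.000844, unblocked 0.0928). The matrix protein SPARC was called higher (1.4 ± 0.18, 0.00285, unblocked 0.0297), but its FPKM was 1.76 and 1.47 in the control line, 0.552 and 0.524 in KO1 and 26.6 and 29.9 in KO2, so that KO1 lay below the control line.

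Of 15 further transcription regulators of the transition, 8 were tested. With bortezomib 2 rose and 1 fell in the blocked fit (0 and 1 unblocked), and in the KO lines limma called 0 in either fit. At an unadjusted p under 0.05 the KO lines had 2 of these genes without the block and 3 with it, and voom called 0 and 1. HMGA2, a chromatin protein, fell by a log2 change of -1.56 ± 0.22 SE (blocked limma adjusted p = 0.000343, unblocked 0.0393). Its vehicle FPKM was 4.52 and 2.37 in the control line and 35 and 6.3 in KO1, and its bortezomib FPKM was 0.392 and 0.369 in the control line and 8.54 and 4.31 in KO1. The forkhead factor FOXC1 rose by 0.49 ± 0.11 (0.00484, unblocked 0.227).

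Of 15 ligands, receptors and signalling genes that drive the transition, 12 were tested, and with bortezomib 4 rose and 5 fell in the blocked fit (0 and 1 unblocked). The TGF-beta receptor gene TGFBR2 was at 31.2 and 56.8 FPKM in control vehicle and 10.2 and 13.7 in control bortezomib, and fell by a log2 change of -1.64 ± 0.11 SE (blocked limma adjusted p = 5.94e-06, unblocked 0.00594). The ligand gene TGFB1 fell by -0.76 ± 0.09 (0.00012, unblocked 0.0651), and the receptor gene NOTCH1 rose by 1.15 ± 0.08 (8.83e-06, unblocked 0.0673). In the KO lines NOTCH1 was the 1 gene called, higher by 0.77 ± 0.15 (0.0208, unblocked 1), 8.33% of the list beside 6.18% of all genes, and it was not called without control vehicle R2 or KO2 vehicle R2. All 12 genes of a list of kinases, ubiquitin ligases and a deubiquitinase known to act on SNAI1 protein were tested. With bortezomib 8 rose and 1 fell in the blocked fit (1 and 0 unblocked), with a median of 0.41, and in the KO lines limma called 0 in either fit, with 0 and 1 at an unadjusted p under 0.05 and 0 by voom in either form. The largest rises were of the kinase genes LATS2 (0.85 ± 0.07, 2.38e-05, unblocked 0.0486) and CSNK1A1 (0.74 ± 0.10, 0.000263, unblocked 0.163) and the ligase subunit gene FBXW11 (0.67 ± 0.12, 0.00148, unblocked 0.318). The shares called with bortezomib in the blocked fit were 53.6, 60, 37.5, 75 and 75% in the order of these 5 lists. They stand beside 54.9% of all genes. In the unblocked fit the shares were 10.7, 24, 12.5, 8.33 and 8.33% in the same order, beside 11.6% of all genes.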

How the data were processed

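RNA sequencing libraries were analysed from 12 A549 samples in 6 groups, which were taken from the titles and labels. The deposited values are FPKM, 1 column per library; FPKM times gene length in kilobases summed to 1000000 per library, and whole reads were recovered for 100% of values (within 0.1 read). Per the submitters' processing notes, CASAVA, STAR 2.5, HTSeq 0.6.1, DESeq2 and hg19 were named with no role or order. Gene positions equalled GENCODE release 29 on GRCh38 for 95.3% of genes and 9 of the 10 markers (all but SNAI2), so coordinates are given as in the table. The strand setting is not given in the sources used here.

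limma 3.58.1 (R 4.3.3; lmFit, contrasts.fit, eBayes with trend) was run on log2(FPKM + 1) on genes that averaged 1 FPKM or more. Differences on this scale understate changes of low genes. The difference between the R2 library and its partner, R1 or unnumbered, was alike between groups (r of 0.7 to 0.89, 15 pairs of groups), so blocked values are printed. This r pools R1 and unnumbered partners, so it cannot decide between the placings of the unnumbered libraries. The script was tested on simulated data. The markers and lists were chosen with earlier results of these data known. All 10 markers were named; a fold change was printed where a fit without the block or with the block by suffix called it, and in addition, chosen after the values were seen, where the other placing of the unnumbered libraries changed a call. From each further list at most 3 called genes with the largest change were named. Some genes that this rule or the likeness measure would name are not reported here. Alternatives were another pseudocount (0.1), 2 other filters, 2 other scalings, voom on recovered reads, leaving out mitochondrially encoded genes, leaving out each library, and blocks. Python 3.11.15 and pandas 2.3.3 read the tables.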

Additional observations from a re-analysis of the deposited data

Results flagged for a closer look

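In 3 of the 10 genes the 2 NFE2L1 knockout lines differed from each other in vehicle by the test of that difference (limma with the replicate block). KO1 minus KO2 was 1.02 on the log2 scale for CDH2, -0.82 for EPCAM and -1.52 for FN1. Each of these calls was absent without the block.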

How the results depend on the processing

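Of 29 log2 changes called with or without the block, all 29 kept their direction under each alternative run. They also did so in each fit that left out 1 library. The 29 were picked by calls in these same data, so this is a description. With all 12 libraries, limma's estimates for bortezomib against vehicle and for KO1 against KO2 are the same with and without the block by design. Their shared direction in those fits is no evidence. The replicate block by title suffix moved the number of markers called from 0 to 4 in the control line with bortezomib, from 0 to 4 in KO1, from 0 to 3 in KO2 and from 2 to 6 over the 3 lines. It moved the count from 0 to 2 for KO1 and for KO2 against the control line in vehicle, from 0 to 3 for their mean, from 0 to 2 for that mean in bortezomib and from 0 to 3 for KO1 against KO2. With the unnumbered libraries counted as R1 the same 9 counts were 4, 4, 2, 6, 4, 2, 4, 2 and 3. With voom on recovered reads and the block they were 4, 5, 5, 5, 2, 2, 3, 2 and 4. Shares of all genes called are given only for the unblocked fit and the block by suffix, with all 12 libraries. The counts under other settings, here and below, are therefore no results about the markers or the lists. Over the 3 lines 1 marker was called, not 2, with the filter at 0.1, with no filter, after rescaling to a common sum, after quantile normalization and without mitochondrially encoded genes. Without the block, leaving out 1 library gave 0 to 1 calls over the 3 lines and 0 in the other comparisons. With the block by suffix, a setting added after the data were seen, leaving out 1 library gave 2 to 4, 1 to 5, 0 to 3, 5 to 6, 1 to 2, 0 to 2, 0 to 3, 0 to 2 and 0 to 3 calls in the order above, and 0 for the interaction. With the second block it gave 3 to 4, 1 to 5, 0 to 2, 5 to 7, 1 to 4, 1 to 2, 2 to 5, 1 to 3 and 0 to 3, and 0 for the interaction. For the further lists in the mean of vehicle-treated KO lines the second block gave 2 to 6 calls of epithelial genes, 6 to 10 of mesenchymal genes, 0 to 3 of transcription regulators and 1 to 4 of signalling genes when 1 library was left out, and the block by suffix 0 to 5, 1 to 8, 0 to 1 and 0 to 2. SNAI2, with 11 to 132 reads per library, is the gene for which depth limits the values most.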
